A study of Homo sapiens with 3 samples.

Results

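hsa-miR-204-5p, hsa-miR-7-5p, hsa-miR-138-5p and hsa-miR-551b-3p, written without the species prefix from here on, are 4 mature miRNAs that have been linked to thyroid carcinoma, and they were read here in 3 cancer-derived cell lines. They were picked by name from 2588 miRNAs, and their 7 loci from 2813, with all rows of 1 name summed. Each line was parental, carried no deletion or treatment, and was harvested 48 h after seeding in DMEM with 10% FBS. C643 is derived from thyroid cancer, ES-2 from ovarian cancer and Huh-7 from liver cancer, and each was represented by 1 small RNA library. With no replicate of any line, a difference between libraries can be set against counting error only, and no p-value describes a difference between cell lines. Normal thyroid was not analysed here, so the data place a thyroid cancer line beside other cancer lines and not beside its tissue of origin.

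A miRNA is cut from a hairpin precursor by Drosha and Dicer, and 1 of the arms, 5p or 3p, is loaded into Argonaute. Bases 2 to 8 of the mature strand, the seed, pair with target mRNAs. miR-204 is made from an intron of TRPM3 and is known as a miRNA that is often lower in papillary thyroid carcinoma. miR-7, which represses EGFR and is bound by the circular RNA CDR1as, is likewise often lower in thyroid tumors. miR-138, a repressor of the telomerase subunit TERT, has been described as lower in anaplastic thyroid carcinoma, the tumor type from which C643 comes. miR-551b has been described as higher in papillary tumors. For the remaining thyroid-linked miRNAs a separate list of 19 names was used.

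The mature sequences are shown because the seeds decide which miRNAs belong together, with the seed in capitals (RefSeq, GRCh38.p14). All 4 names had an entry there.
miR-204-5p: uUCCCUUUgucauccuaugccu
miR-7-5p: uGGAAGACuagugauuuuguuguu
miR-138-5p: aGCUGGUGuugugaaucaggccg
miR-551b-3p: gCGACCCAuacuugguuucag
The 4 seeds differ from each other. Among 2370 mature names of that table, the seeds of miR-7-5p and miR-138-5p occurred in no other name. The seed of miR-204-5p was shared with miR-211-5p and that of miR-551b-3p with miR-551a. miR-211-5p differs from miR-204-5p by A17U and U18C, and miR-551a differs from miR-551b-3p by U9C, A10U, A20C and G21A, with positions counted from 1 at the 5′ end of the member.
miR-211-5p: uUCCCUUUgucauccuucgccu
miR-551a: gCGACCCAcucuugguuucca

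The precursors lie apart in the genome (GENCODE 29, GRCh38, the build the submitters name as hg38). MIR204 lies on chromosome 9 at 70809975 to 70810084, minus strand, in an intron of TRPM3. MIR7-1 lies on the same chromosome at 83969748 to 83969857, minus strand, within HNRNPK, where an exon of a protein-coding HNRNPK transcript overlaps it. MIR7-2 lies on chromosome 15 at 88611825 to 88611934, plus strand, opposite the miRNA gene MIR3529. MIR7-3 lies on chromosome 19 at 4770670 to 4770779, plus strand, in an intron of the long non-coding RNA MIR7-3HG. MIR138-1 on chromosome 3 at 44114212 to 44114310 and MIR138-2 on chromosome 16 at 56858518 to 56858601, both on the plus strand, overlap no other annotated gene. MIR551B lies on chromosome 3 at 168551854 to 168551949, plus strand, in an intron of the pseudogene EGFEM1P.

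The C643 library was the deepest with 8183100 miRNA reads, followed by Huh-7 with 2173587 and ES-2 with 1663181. Levels are given as RPM, reads per 1000000 miRNA reads of the same library, which no scaling factor between libraries can move. Where a miRNA had no read, the level that a count of 0 allows is that of 3 reads, 1.80 RPM for ES-2, 1.38 RPM for Huh-7 and 0.367 RPM for C643. Intervals are Wilson 95% intervals, or exact conditional ones for a ratio. Intervals and limits cover counting error only. The hepatocyte miRNA miR-122-5p made up 13.3% of reads in Huh-7, against 0.00572% (468 reads) for C643 and 0.000361% (6 reads) for ES-2. No miRNA was fixed as a marker of thyroid or ovary, so the labels of C643 and ES-2 were not checked in this way.

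Of the 4 miRNAs, miR-7-5p was the only one with a read in every library. miR-138-5p was read in C643 and ES-2 and not in Huh-7. miR-204-5p and miR-551b-3p were both highest in Huh-7, the liver cancer line, and at or near 0 in C643, the thyroid cancer line. At a deposited value of 1 or more, 3 of the 4 were present for Huh-7, 2 for ES-2 and 2 for C643. Of all 2588 miRNAs, 685 were present at that value for Huh-7, 550 for ES-2 and 555 for C643. A value of 1 took more reads in C643, where 1 read equals 0.117, than in ES-2, where it equals 0.694. At 1 read or more, 3 of the 4 were present in each library. Of all 2588 miRNAs, 858 had a read for Huh-7, 608 for ES-2 and 649 for C643. The summed share of the 4 miRNAs in the library was 0.209% for Huh-7, 0.321% for ES-2 and 0.441% for C643. miR-7-5p alone made up 96.0%, 92.6% and 99.2% of these sums.

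**Figure D1:**
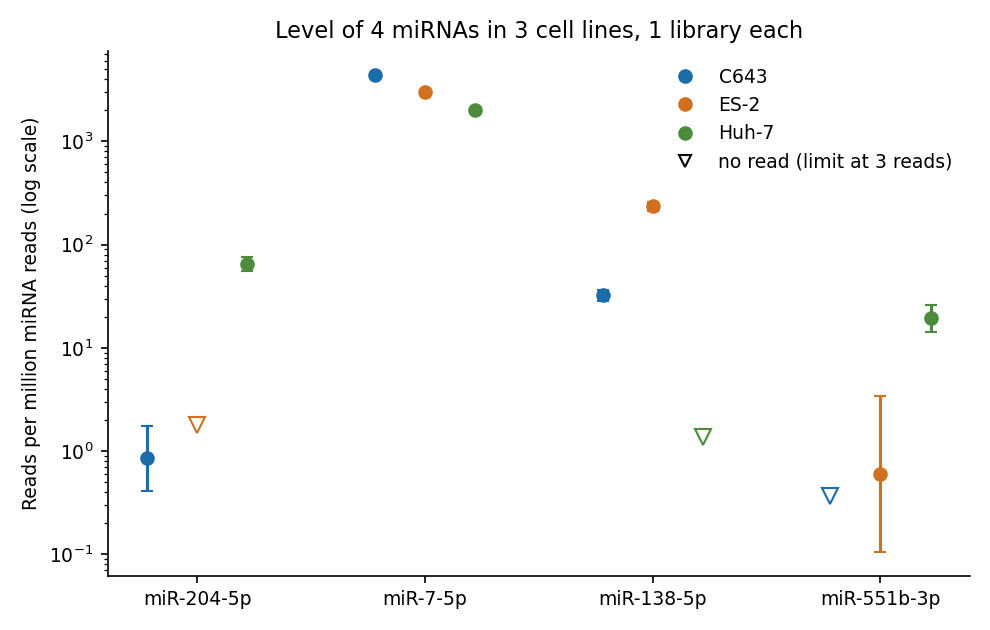
Reads per 1000000 miRNA reads (RPM) on a log axis for miR-204-5p, miR-7-5p, miR-138-5p and miR-551b-3p in C643, ES-2 and Huh-7, with Wilson 95% intervals and 1 library per line; open triangles mark libraries without a read, drawn at the limit of 3 reads. miR-7-5p sits between 2001 and 4381 in all libraries, while each of the other 3 miRNAs has a library without a read.

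miR-7-5p stood at 4381 RPM in C643 (95% CI 4336 to 4427, 35851 reads). The ES-2 library gave 2971 RPM (2889 to 3055, 4941 reads), and the Huh-7 library gave 2001 RPM (1942 to 2061, 4349 reads). Its rank by reads was 28 for C643, 31 for ES-2 and 51 for Huh-7. The 3 intervals did not overlap, so the order C643, ES-2, Huh-7 exceeded counting error. By share C643 exceeded ES-2 1.47-fold (1.43 to 1.52) and Huh-7 2.19-fold (2.12 to 2.26). ES-2 exceeded Huh-7 1.48-fold (1.43 to 1.55). On the deposited scale the order was the same, with values of 4203, 3430 and 1225. The size of the folds was not. There ES-2 exceeded Huh-7 2.80-fold, C643 exceeded Huh-7 3.43-fold and C643 exceeded ES-2 1.23-fold. Each lies outside its interval by share, so the folds rest on the scaling beyond counting error.

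miR-138-5p had 391 reads in ES-2, or 235 RPM (95% CI 213 to 260), and 264 reads in C643, or 32.3 RPM (28.6 to 36.4). No read of it was found in Huh-7. It ranked 109 in ES-2 and 227 in C643. The thyroid cancer line thus lay between the others, 7.29-fold below ES-2 by share (6.22 to 8.55) and at least 23.4-fold above Huh-7. ES-2 lay at least 170-fold above Huh-7.

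Huh-7 held 141 reads of miR-204-5p, C643 held 7 and ES-2 held 0. These gave 64.9 RPM in Huh-7 (95% CI 55.0 to 76.5) and 0.855 in C643 (0.414 to 1.77). Huh-7 exceeded C643 75.8-fold by share (35.9 to 192) and ES-2 at least 35.96-fold. The level in C643 was below the 1.80 RPM that a count of 0 allows in ES-2, so an order of these lines was not detectable at this depth. Its seed relative miR-211-5p, made from an intron of TRPM1, had 1 read in Huh-7 and none in the other libraries.

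Huh-7 held 42 reads of miR-551b-3p, ES-2 held 1 and C643 held 0. The level in Huh-7 was 19.3 RPM (95% CI 14.3 to 26.1), and the read in ES-2 gave 0.601 (0.106 to 3.41). Huh-7 exceeded C643 at least 52.7-fold by share and ES-2 32.1-fold, with a counting interval of 5.46 to 1299 that reflects the read in ES-2. C643 and ES-2 were both at or under 3 reads and no fold is given. miR-551a, which has the same seed, had no read in any library.

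ES-2 was compared with Huh-7, from the same deposited table, on the log2(value + 1) scale, over 390 miRNAs at 10 or more in either library. miR-138-5p was higher in ES-2 by a log2 difference of 8.09. miR-204-5p was higher in Huh-7, with a difference of -5.35 (ES-2 minus Huh-7), as was miR-551b-3p with -2.92. With a pseudocount of 10 in place of 1, the difference of miR-551b-3p was -1.03, short of 4-fold. miR-7-5p was higher in ES-2 by 1.49, which did not reach 4-fold, a difference of 2. Among all miRNAs tested, 19.5% exceeded 4-fold toward ES-2 and 27.7% toward Huh-7, so 47.2% passed in either direction. 3 of the 4 miRNAs did so, 1 toward ES-2 and 2 toward Huh-7. miR-138-5p passed the limit of 10 through ES-2 alone, and miR-204-5p and miR-551b-3p through Huh-7 alone, so their count is a description. The median log2 difference over the 390 miRNAs was -0.54. With both libraries brought to the same total, 65 miRNAs passed toward ES-2 and 181 toward Huh-7, against 76 and 108 on the deposited scale, and none of the 4 miRNAs changed its call.

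**Figure D2:**
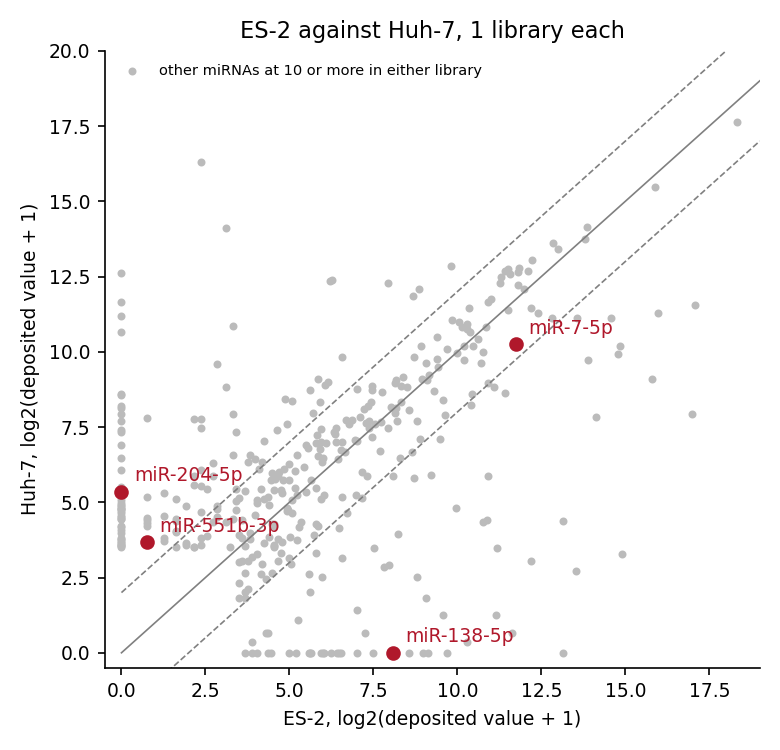
Deposited values of ES-2 (x axis) and Huh-7 (y axis), each as log2(value + 1), for 390 miRNAs at 10 or more in either library, with the 4 miRNAs in red. The solid line marks equal values and the dashed lines a log2 difference of 2; miR-7-5p lies between the dashed lines, miR-138-5p on the x axis, and miR-204-5p and miR-551b-3p at the left edge.

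Whole reads could be recovered for 100% of the values above 0, so the reads themselves were also tested (exact binomial, two-sided, with Benjamini-Hochberg adjustment). The expected split of the reads followed the library factors of the deposited values, 1440543 for ES-2 and 3551525 for Huh-7, and not the read totals. The calls therefore rest on the deposited scaling, unlike RPM. Such a test tells libraries apart, and says nothing on cell lines. It called 344 of the 390 miRNAs, which is 34.4% of those tested toward ES-2 plus 53.8% toward Huh-7. Each of the 4 miRNAs was among them, which sets them little apart where 344 of 390 were called. Those of the 4 that passed the limit through ES-2 alone or Huh-7 alone, as stated above, were selected by the library in which they were high. Their calls in this test are therefore a description as well.

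The values of C643 come from another table, which may have been normalized separately, so log2 differences with C643 are descriptions set across tables. Against Huh-7, miR-138-5p was higher in C643 by a log2 difference of 5.00. miR-204-5p was lower in C643, with -4.48, and so was miR-551b-3p, with -3.68. miR-7-5p was higher in C643 by 1.78, short of 4-fold. Of 399 miRNAs, 22.6% exceeded 4-fold toward C643 and 25.1% toward Huh-7, together 47.6%. These were 90 and 100 miRNAs, and 77 and 157 with both libraries brought to the same total. The exact binomial read test took the factors of both tables as given, so its calls with C643 rest on a scaling set across tables. It called 42.4% toward C643 and 49.6% toward Huh-7, among them all 4 miRNAs. Here miR-138-5p passed the limit of 10 through C643 alone, and miR-204-5p and miR-551b-3p through Huh-7 alone, so that their calls are again a description. Against ES-2, 2 of the 4 reached a value of 10 in either library: miR-138-5p stood lower in C643 with -3.09, and miR-7-5p higher with 0.29. Of 351 miRNAs, 15.4% exceeded 4-fold toward C643 and 10.8% toward ES-2, together 26.2%. The exact read test, with the same limit, called 45.6% toward C643 and 42.7% toward ES-2. miR-7-5p was among the former and miR-138-5p among the latter.

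miR-7-5p and miR-138-5p are each encoded at several loci, and the table lists reads for each chromosome. The reads of miR-7-5p were spread almost evenly. In C643, 33.6% were placed at MIR7-1, 33.2% at MIR7-2 and 33.2% at MIR7-3. In Huh-7 the parts were 34.0%, 33.0% and 33.0%. Of 9 intervals, 8 held the 33.3% of an equal split, and the exception was MIR7-3 in ES-2 with 31.7% (95% CI 30.4 to 33.0). The parts within a library depend on each other, so these intervals are not independent. The loci share the mature strand, so the split shows where reads were placed and does not measure the output of each locus.

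The reads of miR-138-5p were not spread evenly. MIR138-1 received 77.7% of them in C643 (95% CI 72.3 to 82.3, 205 of 264 reads) and 65.2% in ES-2 (60.4 to 69.8, 255 of 391 reads). Neither interval held 50%, and the intervals of the 2 lines did not overlap. Among miRNAs with exactly 2 loci and at least 20 reads, the locus with more reads held a median of 52.1% over 35 miRNAs in C643, where only miR-194-5p exceeded miR-138-5p. The median was 52.7% over 29 miRNAs in ES-2, where miR-194-5p and miR-320d did. These miRNAs were named after their values had been seen.

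**Figure D3:**
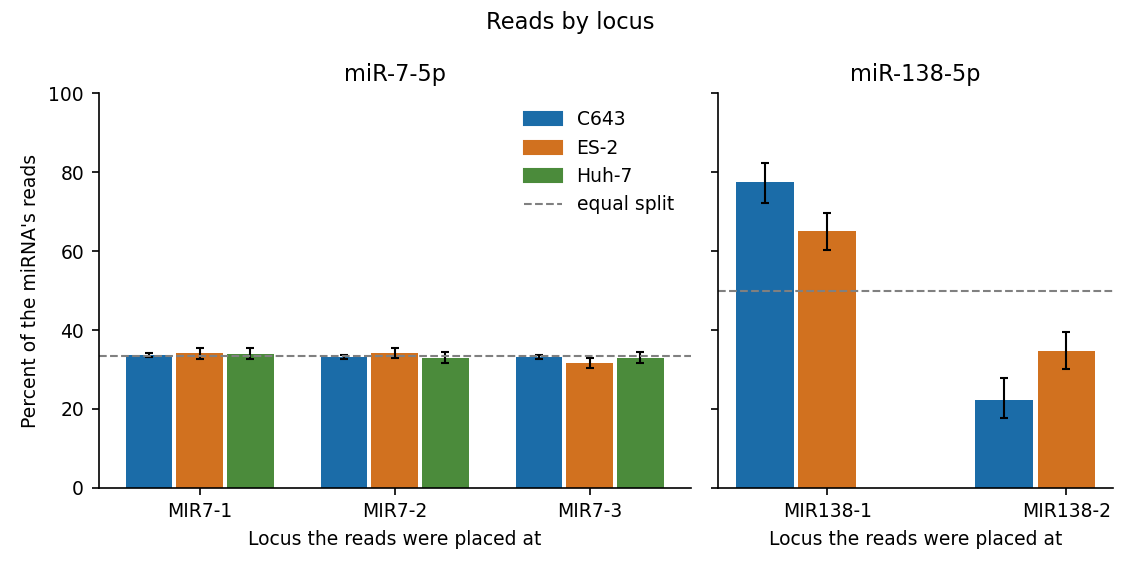
Percent of the reads of miR-7-5p (left) and miR-138-5p (right) placed at each of their loci, by cell line, with Wilson 95% intervals; the dashed line marks an equal split. miR-7-5p stays near 33.3% at each locus, whereas MIR138-1 holds 77.7% (C643) or 65.2% (ES-2) of the reads; no miR-138-5p read was found for Huh-7.

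The genomic bases around the shared mature sequences show where the loci can be told apart. Windows of 30 bases from the RefSeq hairpins (GRCh38.p14, plus strand) are given with the bases that differ between the pair in capitals.
MIR138-1, chr3:44114231-44114260: GgcagcugguguugugaaucaggccgUUgC
MIR138-2, chr16:56858524-56858553: UgcagcugguguugugaaucaggccgACgA
MIR7-2, chr15:88611853-88611882: AuCuggaagacuagugauuuuguuguuGuC
MIR7-3, chr19:4770697-4770726: GuGuggaagacuagugauuuuguuguuCuG
The MIR138 hairpins are identical over 25 bases, the 23 of the mature strand and 2 before it, and differ from the first base after it. The MIR7-2 and MIR7-3 hairpins are identical over the 24 bases of the mature strand alone. A read that lies within these runs fits both loci of a pair. The hairpin of MIR7-1 was missing from the sequences used here, so its window is not shown. How reads with several matches were placed was not given in the sources used here. The part of such reads in the near-even split of miR-7-5p and in the uneven split of miR-138-5p was not tested.

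The opposite arms differ between loci and so belong to 1 precursor each. They are shown with the seed in capitals.
miR-7-1-3p: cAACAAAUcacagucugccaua
miR-7-2-3p: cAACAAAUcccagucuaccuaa
miR-138-1-3p: gCUACUUCacaacaccagggcc
miR-138-2-3p: gCUAUUUCacgacaccaggguu
The 3p arms of MIR7-1 and MIR7-2 differ at 4 of 22 bases, all outside the seed. Those of MIR138-1 and MIR138-2 also differ at 4 bases, of which C5U lies in the seed.

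Of these 4 arms, those of MIR7-1 and MIR138-1 were read and the others were not. C643 held 304 reads of miR-7-1-3p, Huh-7 held 116 and ES-2 held 22. miR-7-2-3p had no read in any library, although 33.2% of the miR-7-5p reads of C643 had been placed at MIR7-2. miR-1179, whose hairpin ends 3627 bases before MIR7-2, and both arms of miR-3529 from the opposite strand, looked up after the annotation had been seen, also had no read. No 3p arm of MIR7-3 was analysed here.

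The 3p arm miR-138-1-3p was read 33 times for C643 and 22 times for ES-2, or 4.03 and 13.2 RPM, and none in Huh-7. Like miR-138-5p, it was thus higher in ES-2 than in C643, by 3.28-fold (95% CI 1.82 to 5.80). miR-138-2-3p had no read in any library, while 59 reads of miR-138-5p in C643 and 136 in ES-2 had been placed at MIR138-2. Taking only reads placed at MIR138-1, the 5p arm exceeded the 3p arm 6.21-fold in C643 (4.29 to 9.27) and 11.6-fold in ES-2 (7.49 to 18.8). These intervals overlap, which does not decide whether the ratios differ, and a difference was not tested.

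miR-7-1-3p did not follow the order of miR-7-5p. Its level was 53.4 RPM in Huh-7 (95% CI 44.5 to 64.0), 37.1 in C643 (33.2 to 41.6) and 13.2 in ES-2 (8.736 to 20.03), so by share Huh-7 was highest, where miR-7-5p was lowest. On the deposited scale C643 came first with 35.6 and Huh-7 second with 32.7, so the order of these lines rested on the scaling. The ratio within a library does not depend on it. miR-7-5p, summed over its loci, exceeded miR-7-1-3p 118-fold in C643 (105 to 132), 225-fold in ES-2 (148 to 359) and 37.5-fold in Huh-7 (31.2 to 45.5).

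The ratio thus differed 5.99-fold between ES-2 and Huh-7, a log2 difference of 2.58. Of 46 other precursors with at least 20 reads of each arm in both libraries, 0 differed by as much. Their median absolute difference was 0.33. The 5.99-fold has no interval and rests on 22 reads of miR-7-1-3p in ES-2. Between C643 and Huh-7 the difference was 1.65, and 29.9% of 67 precursors reached it. Between C643 and ES-2 it was -0.93, reached by 44.1% of 59 precursors in absolute size. The median absolute difference of all precursors was 1.04 between C643 and Huh-7 and 0.82 between C643 and ES-2, both above that between ES-2 and Huh-7. This background was added after the ratio of miR-7 had been seen. That ratio sets 5p reads summed over all loci against the 3p arm of MIR7-1 alone. Its place among the other precursors is therefore a description. Restricted to reads placed at MIR7-1, the 5p arm exceeded miR-7-1-3p 76.5-fold for ES-2, with an interval of 50.4 to 122. The Huh-7 library gave 12.8-fold, between 10.6 and 15.5. These restricted ratios were not set against the other precursors.

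**Figure D4:**
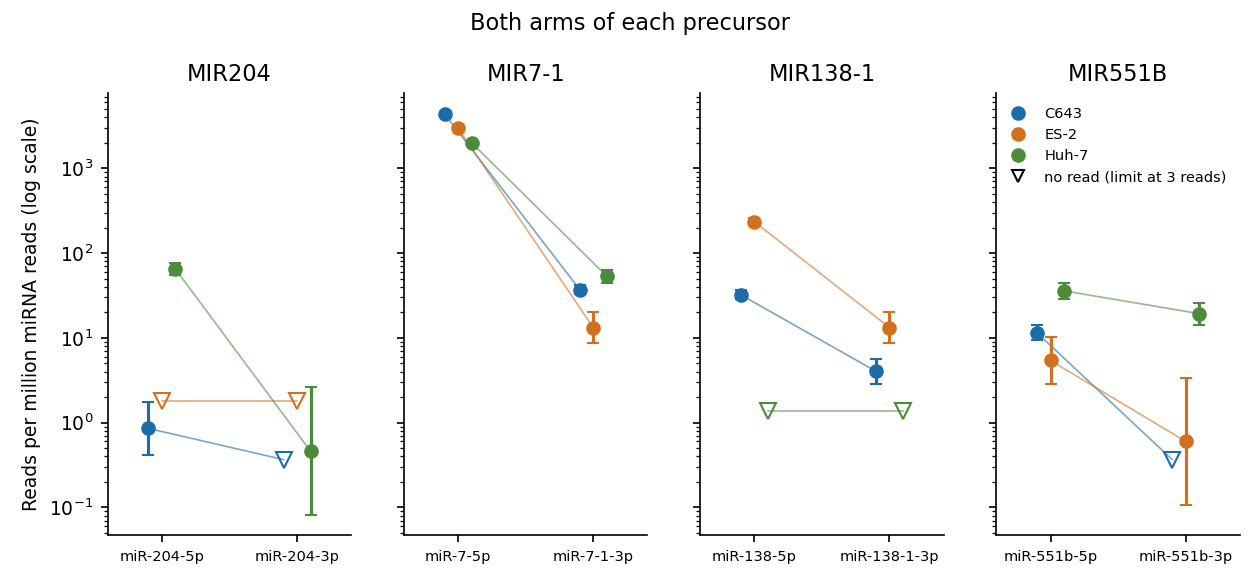
Both arms of MIR204, MIR7-1, MIR138-1 and MIR551B in reads per 1000000 miRNA reads (RPM) on a log axis, with Wilson 95% intervals and lines joining the arms of 1 cell line; the 5p values of miR-7 and miR-138 are summed over all loci, and open triangles mark no read, drawn at 3 reads. The lines of MIR7-1 cross between the arms, and in MIR551B the 5p arm lies above the 3p arm in each library.

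MIR551B was read more from its 5p arm, which is not among the 4 miRNAs. C643 held 94 reads of miR-551b-5p, or 11.5 RPM (95% CI 9.39 to 14.1). Huh-7 held 78 reads, or 35.9 RPM (28.8 to 44.8), and ES-2 held 9 reads, or 5.41 RPM (2.85 to 10.3).
miR-551b-5p: gAAAUCAAgcgugggugagacc
In Huh-7 the 5p arm exceeded the 3p arm 1.86-fold (1.26 to 2.77). In C643 it did so at least 31.3-fold, since no 3p read was found. In ES-2 the ratio was 9 with an interval of 1.25 to 394. The precursor was therefore read in the thyroid cancer line although miR-551b-3p was not, and Huh-7 exceeded C643 3.12-fold in the 5p arm (2.28 to 4.26) but at least 52.7-fold in the 3p arm. Arm ratios differed widely between these libraries in general, with a median absolute log2 difference of 1.04 over 67 precursors. MIR551B had too few reads to be among them, and whether its contrast is particular to it was not tested.

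MIR204 was read almost entirely from the 5p arm. In Huh-7, 141 reads of miR-204-5p stood against 1 of miR-204-3p, a ratio of 141 with an interval of 24.9 to 5608. miR-204-3p had no read in C643 or ES-2.

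To place each miRNA among the rest, the miRNAs with the most similar profile were taken from 461 that reached 10 RPM in any library, by the Euclidean distance between centred log2(RPM + 1) profiles over 3 libraries. With 3 libraries a centred profile has 2 free values, so a small distance is a description only. Nearest to miR-7-5p were miR-484 (distance 0.20), miR-30c-5p (0.30) and miR-671-3p (0.33). Nearest to miR-138-5p were miR-361-3p (1.08), miR-199a-5p (1.22) and miR-100-5p (1.23), so no profile came as close to it. miR-361-3p had 433 RPM in ES-2, 94.6 in C643 and no read in Huh-7. Nearest to miR-204-5p were miR-1247-5p (0.24), the endothelial miRNA miR-126-3p (0.43) and miR-200b-5p (0.50) of the epithelial miR-200 family. Nearest to miR-551b-3p were miR-1908-5p (0.05), miR-3140-3p (0.34) and miR-1276 (0.36). miR-1908-5p was higher throughout, at 14.8 RPM for C643, 25.3 RPM for ES-2 and 316 RPM for Huh-7.

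The remaining thyroid-linked miRNAs were read as 2 groups. Of 11 that are often higher in thyroid tumors, 7 reached a value of 10 in C643 or ES-2. 0 of the 7 were 4-fold higher in C643, beside 15.4% of all miRNAs tested, and 1, miR-31-5p, was 4-fold higher in ES-2, beside 10.8%. The median log2 difference was -0.25, against 0.07 over all miRNAs tested. Against Huh-7, 8 reached 10, of which miR-221-3p and miR-222-3p were higher in C643 and miR-375 and miR-34a-5p in Huh-7. These 2 and 2 of 8 stand beside 22.6% and 25.1% of all miRNAs tested. miR-31-5p passed the limit of 10 through ES-2 alone, and miR-375 and miR-34a-5p through Huh-7 alone, so their calls are a description. The group's median was 0.08, against -0.21 over all.

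Of 8 that are often lower in thyroid tumors, 5 reached 10 in each comparison with C643. 0 of the 5 differed 4-fold between C643 and ES-2, beside 26.2% of all miRNAs tested, and their median was 1.03, against 0.07 over all. Against Huh-7, miR-139-5p and miR-30a-5p were higher in C643 and miR-486-5p was higher in Huh-7. These 3 of 5 stand beside 47.6% of all miRNAs tested, and the median was 0.63, against -0.21 over all. Here miR-139-5p passed the limit of 10 through C643 alone, so its call is a description. miR-1179 and miR-144-3p had no read in any library.

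Relative to the mean level of ES-2 and Huh-7, miR-139-5p and miR-224-5p were highest in C643, and miR-187-3p and miR-34a-5p lowest, leaving aside miR-451a with 1 read in all. miR-139-5p, of the group often lower in tumors, stood at 42.4 RPM for C643, 16.8 RPM for ES-2 and 0.920 RPM for Huh-7. miR-224-5p, of the group often higher, stood at 3663, 1013 and 1900 RPM in that order. miR-187-3p and miR-34a-5p, both of the group often higher, had no read in C643. In Huh-7 they stood at 14.7 and 285 RPM, and miR-34a-5p had 3.61 in ES-2, where miR-187-3p had no read.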

How the data were processed

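Small RNA of parental C643, ES-2 and Huh-7 cells, 1 library each, was prepared from 50 ng of TRIZOL-extracted total RNA with a NEXTflex kit for Illumina sequencing. The submitters' processing notes name cutadapt 1.14, Bowtie2 2.3.3, SAMtools 1.5, featureCounts 1.5.3, edgeR 3.18.1 and hg38. The authors deposited a signal, reads per locus divided by a library factor and named CPM. The columns do not sum to 1000000, and each value is a whole multiple of the smallest (tolerance 0.001), which gave whole reads and totals of 1663181 to 8183100. A single read equals 0.117 for C643, 0.282 for Huh-7 and 0.694 for ES-2. The placement of multi-mapping reads was not given in the sources used here.

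Rows were summed by mature name. Differences were taken as log2(value + 1), at a limit of 10 and a 4-fold difference. A fold against 0 reads used 3 reads per library. Processing used Python 3.11.15, numpy 2.4.6, pandas 2.3.3 and scipy 1.17.1, and the read test and fold calls were tested on simulated data. The members and lists were chosen with earlier results of these data known. Named were the 4 miRNAs, their opposite arms, seed relatives and the neighbour of MIR7-2, the 3 nearest profiles of each, and the 2 highest and 2 lowest thyroid-linked miRNAs of C643 relative to the other lines. Alternatives covered denominators, pseudocounts, filters, scaling, 1 locus per miRNA and the read test.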

Additional observations from a re-analysis of the deposited data

How the results depend on the processing

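No paired analysis was possible because no cell line was sequenced more than once. Of 20 recomputed log2 differences between ES-2 and Huh-7, 13 stayed within counting error, 7 moved and none changed direction. For miR-204-5p and miR-138-5p, each without a read in a library, the counting interval has no end toward larger differences, so those could not count as moved. With 1 locus per mature miRNA, miR-204-5p and miR-551b-3p, which have a single locus, could not move either. A pseudocount of 10 moved miR-204-5p to -2.31, miR-138-5p to 4.81 and miR-551b-3p to -1.03, which took miR-551b-3p under 4-fold. The same library total gave 0.57 for miR-7-5p and 7.88 for miR-138-5p. The median ratio set to 0 gave 1.77 for miR-7-5p, and 1 locus per mature miRNA gave 7.10 for miR-138-5p. The summed share of the 4 miRNAs in C643, ES-2 and Huh-7 became 0.423%, 0.370% and 0.128% with a denominator of 1000000, 0.618%, 0.447% and 0.313% without miR-21-5p, and 0.178%, 0.130% and 0.0829% with 1 locus per mature miRNA, each by construction. At a limit of 10, as at 1, 3 of the 4 miRNAs were detected for Huh-7 and 2 for each other line. At a limit of 1, Huh-7 also had the most of all miRNAs, 685, against 550 for ES-2 and 555 for C643. At 1 read, 3 of the 4 were detected in each library, so these numbers no longer differed. Of all miRNAs, 858 had a read for Huh-7, 608 for ES-2 and 649 for C643. The number of all miRNAs at a limit of 10 was not counted for each library.

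Counts of miRNAs at least 4-fold higher moved in 23 of 30 recomputations. The read test among these alternatives has no fold limit. Its numbers count every miRNA called higher at an adjusted p of 0.05 and are not 4-fold counts. For ES-2 and Huh-7 they were 48 and 42 at a filter of 100, and 134 and 210 by the read test, against 76 and 108. Without a filter or with a pseudocount of 10, 180 and 60 were higher in Huh-7. For C643 and ES-2 they were 123 and 82 without a filter, 18 and 16 at a filter of 100, 22 and 24 with a pseudocount of 10, and 160 and 150 by the read test, against 54 and 38. For C643 and Huh-7 they were 141 and 173 without a filter, 54 and 44 at a filter of 100, and 169 and 198 by the read test, against 90 and 100. At the same library total 157 were higher in Huh-7, and with a pseudocount of 10 the number was 55. At a filter of 100 RPM, 1 of the 3 nearest profiles was shared for miR-204-5p and for miR-551b-3p. At these depths miR-204-5p in ES-2, miR-138-5p in Huh-7 and miR-551b-3p in C643 had no read, so folds against these libraries are lower bounds where given.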
